A study of Mus musculus with 9 samples.

Results

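The genes described here are 37 interferon-stimulated antiviral genes of the mouse, the genes a cell switches on when it senses virus-like nucleic acid or receives an interferon signal. They were listed by name. Each was read from its brightest probe set, that is, the array feature with the highest mean among those annotated to that gene alone. Of the 37 listed genes 35 could be measured, out of 18193 genes on the array, and all 35 lay above background on all 9 arrays. They comprise 5 sensors, 11 signalling factors and 19 of 21 listed effectors. The effector Isg15 was read only by a probe set shared with Gm9706, and no probe set was named for Ifi44, so neither was analysed here.

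Primary tumours of 3 mouse mammary carcinoma lines were profiled on single-colour Affymetrix arrays, 1 array per mouse and 3 mice per line. Each mouse was a female of the BALB/c strain aged 7 to 9 weeks, and the groups were tumours grown from 4T1/CMVLUC, from 66cl4/CMVLUC or from 67NR/CMVLUC cells. For every mouse 1000000 viable cells were placed in the fourth mammary gland on the right, the tumour was taken after 15 days, and RNA came from its laser-captured tumour area. The suffix CMVLUC is on the line name in all 3 groups, each line is a transplanted cell line in a host with its own immune system, and the captured area can hold host cells beside tumour cells. Of the labelled tissue's epithelial markers, 6 of 7 passed as higher in 4T1, both against 67NR and against 66cl4 tumours, and 1, Krt8, passed as higher in 66cl4 than in 67NR, by 6.27 on the log2 scale. In those comparisons 19.4%, 17.9% and 20% of all genes tested were higher. The summed linear signal of these markers was 25099 to 28839 on 4T1 arrays, 7378 to 9472 on 66cl4 arrays and 361 to 422 on 67NR arrays. On each array 7 of the 7 were above background in 4T1, 4 to 5 in 66cl4 and 3 to 4 in 67NR, with Cdh1 and Krt7 below it on every 66cl4 and 67NR array.

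Cells detect foreign or misplaced nucleic acid with sensors in the cytoplasm, and the signal leads to the secretion of type I interferons. These bind the receptor made of Ifnar1 and Ifnar2, whose kinases Jak1 and Tyk2 activate a complex with Stat2 and Irf9 that binds the interferon-stimulated response element in gene promoters. Interferon gamma, made mainly by T cells and natural killer cells, acts through Ifngr1, Ifngr2, Jak1 and Jak2. The induced genes block viral entry, replication and release, and several of them strengthen or end the signal itself. Tumours can show the same programme without a virus.

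Because the response element lies in gene promoters, its core was searched in those of the members. The core is the letters TTTC, any 2 bases and TTTC again. Both strands were searched from 250 bases before to 30 bases after the annotated start. RefSeq promoters of build GRCm38.p6 were at hand for 27 of the 37 genes, and 13 of the 27 held the core, against 3.8% of 27025 genes in the same table. The core was found in 2 of 3 sensors, 3 of 8 signalling factors and 8 of 16 effectors with a promoter. The shorter motif of Stat dimers, TTCNNNGAA, which reads the same on both strands, was found in 7 of the 27 and in 9.04% of all genes. A match describes the letters of the window and is no evidence of binding. To show what the element looks like, windows around it follow for up to 3 measured members of each role. They were taken in order of the F-test p over the lines, described below. The effectors shown are thus those with the core that differed most, while some sensors and signalling factors shown passed in no comparison. They are read 5′ to 3′ on the strand of the gene, with the core in capitals on whichever strand it lies.
Eif2ak2: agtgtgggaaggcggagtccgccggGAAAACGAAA
Ddx58: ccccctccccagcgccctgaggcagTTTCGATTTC
Stat2: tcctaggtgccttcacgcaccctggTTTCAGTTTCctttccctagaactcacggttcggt
Socs1: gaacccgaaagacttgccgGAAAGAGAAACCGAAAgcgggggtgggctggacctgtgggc
Trim30a: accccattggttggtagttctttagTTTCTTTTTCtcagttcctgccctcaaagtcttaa
Ifit1: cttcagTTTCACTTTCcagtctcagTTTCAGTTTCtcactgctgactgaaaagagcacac
Oas3: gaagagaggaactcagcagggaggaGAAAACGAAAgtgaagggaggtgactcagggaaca
Bst2: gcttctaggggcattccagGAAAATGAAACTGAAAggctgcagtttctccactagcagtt

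In GRCm38.p6 these windows lie at chr17:78882545-78882579 (minus strand) for Eif2ak2, chr4:40239814-40239848 (minus strand) for Ddx58 and chr10:128270251-128270310 (plus strand) for Stat2. The window of Socs1 is chr16:10785579-10785638 (minus strand), and that of Trim30a is chr7:104465195-104465254 (minus strand). Those of the effectors are chr19:34640779-34640838 (plus strand) for Ifit1, chr5:120777700-120777759 (minus strand) for Oas3 and chr8:71537562-71537621 (minus strand) for Bst2. Ifit1, Socs1 and Bst2 each hold 2 copies, which overlap in Socs1 and Bst2 and stand apart in Ifit1. Members with and without the core were found on both sides of the calls. Of the 12 measured genes with it, 7 were higher in 4T1 than in 66cl4 tumours, where 17.9% of all genes tested were. The median log2 difference of the 12 was 0.90. Of the 13 measured genes with a promoter but without it, 11 were higher and the median was 1.17. The other 10 measured members had no promoter at hand and are in neither set: Dhx58, Ifi27l2a, Mx1, Mx2, Oas2, Parp14, Parp9, Rtp4, Usp18 and Zbp1. They include the largest difference in this comparison, that of Zbp1 (3.20), and the only member called lower in it, Ifi27l2a (-1.90).

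The antiviral genes were highest as a group in 4T1 tumours, intermediate in 67NR tumours and lowest in 66cl4 tumours. Values are log2 signal as deposited, background is the highest of 27 bacterial control probe sets on each array (4.83 to 5.08), and a gene passed where limma's adjusted p was under 0.05 over all 13409 genes tested. The mean log2 signal over the 35 genes was 8.86, 8.97 and 9.50 on the 4T1 arrays, 7.85, 7.85 and 7.99 on the 66cl4 arrays and 8.56, 8.49 and 8.39 on the 67NR arrays. The 3 lines did not overlap in this mean. In 23 of the 35 genes the means of the lines stood in that same order. The moderated F-test over the lines called 27 of the 35, where it called 56.6% of all genes tested.

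**Figure D1:**
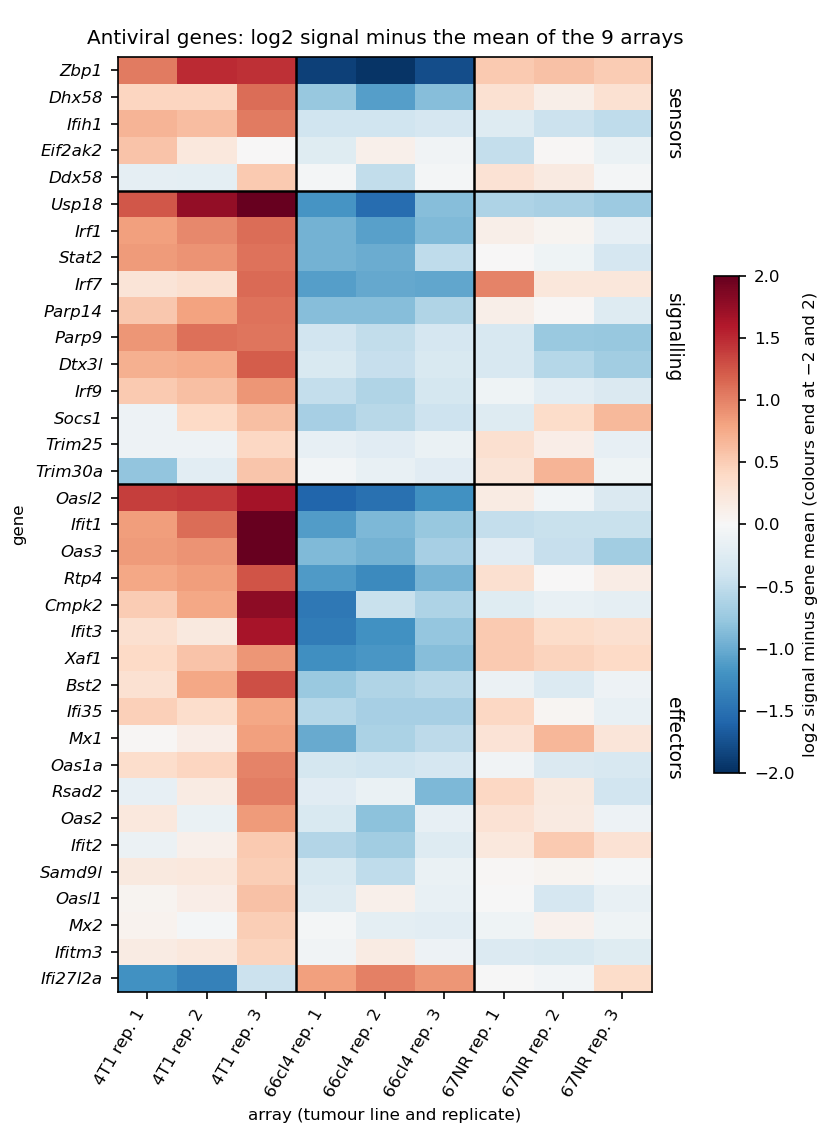
Log2 signal of the 35 antiviral genes (rows, by role) on the 9 arrays (columns, by tumour line and replicate), each value shown as its distance from the gene's mean over the 9 arrays. Most rows are red in 4T1, blue in 66cl4 and pale in 67NR, and Ifi27l2a at the bottom runs the other way.

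In 4T1 against 67NR tumours, 17 of the 35 genes were higher and 1 was lower, where 19.4% and 20.5% of all genes tested were. The median difference over the 35 was 0.46 on the log2 scale (range -1.10 to 2.52), against -0.03 over all genes tested. For 20 genes every 4T1 array lay above every 67NR array, and for 1 every one lay below, where such separation held for 23.4% and 26.3% of all genes. The running number in the array descriptions, whose meaning the labels do not give, was higher on every 67NR array than on any other array, and with it as a covariate 8 genes were higher instead of 17. The 9 calls lost were those of Zbp1 (adjusted p = 0.0521), Parp14, Ifit1, Oas1a, Oas3, Bst2, Ifitm3, Rtp4 and Cmpk2. With the mean of the hybridization controls as a covariate, which ranged from 10.30 to 10.72 on 4T1 and 10.87 to 11.47 on 67NR arrays, 10 were higher, and the calls of Parp14, Oas1a, Oas3, Bst2, Ifitm3, Rtp4, Cmpk2 and, as lower, Ifi27l2a were lost. Neither the running number nor the controls can be fully told apart from the line here.

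In 66cl4 against 67NR tumours the direction was the opposite, with 1 gene higher and 14 lower, where 20% and 16% of all genes tested were. The median difference was -0.50 (range -2.40 to 0.80), against 0.01 over all genes. Every 66cl4 array lay below every 67NR array for 22 genes and above for 2, where 23.7% and 28.8% of all genes were so separated. With the running number as a covariate Stat2 (-0.65, adjusted p = 0.0532), Socs1 and Ifi27l2a lost their calls, and Rsad2 (-1.13, adjusted p = 0.0399) and Oas2 (-0.96, adjusted p = 0.0442) passed as lower. With the hybridization controls Socs1 and Ifi27l2a lost theirs. In a fit of only these 2 lines 18 genes were lower instead of 14. The added calls were Usp18 (adjusted p = 0.0356), Ifit1 (adjusted p = 0.0117), Oas2 (adjusted p = 0.0468) and Bst2 (adjusted p = 0.00833).

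The widest contrast was 4T1 against 66cl4, with 26 genes higher and 1 lower, where 17.9% and 23.4% of all genes tested were. Here the median difference was 1.17 (range -1.90 to 3.20), against -0.03 over all genes. Of the 35 genes 22 passed with a difference of at least 2-fold, compared with 10 in 4T1 against 67NR and 8 in 66cl4 against 67NR. The share of all genes tested at that size was not counted, so whether these counts exceed it cannot be said. Complete separation of the arrays was seen for 28 genes upward and 1 downward, where 21.7% and 29.2% of all genes showed it. The 3 comparisons share arrays, so their calls are given side by side and not as repeats of each other.

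**Figure D2:**
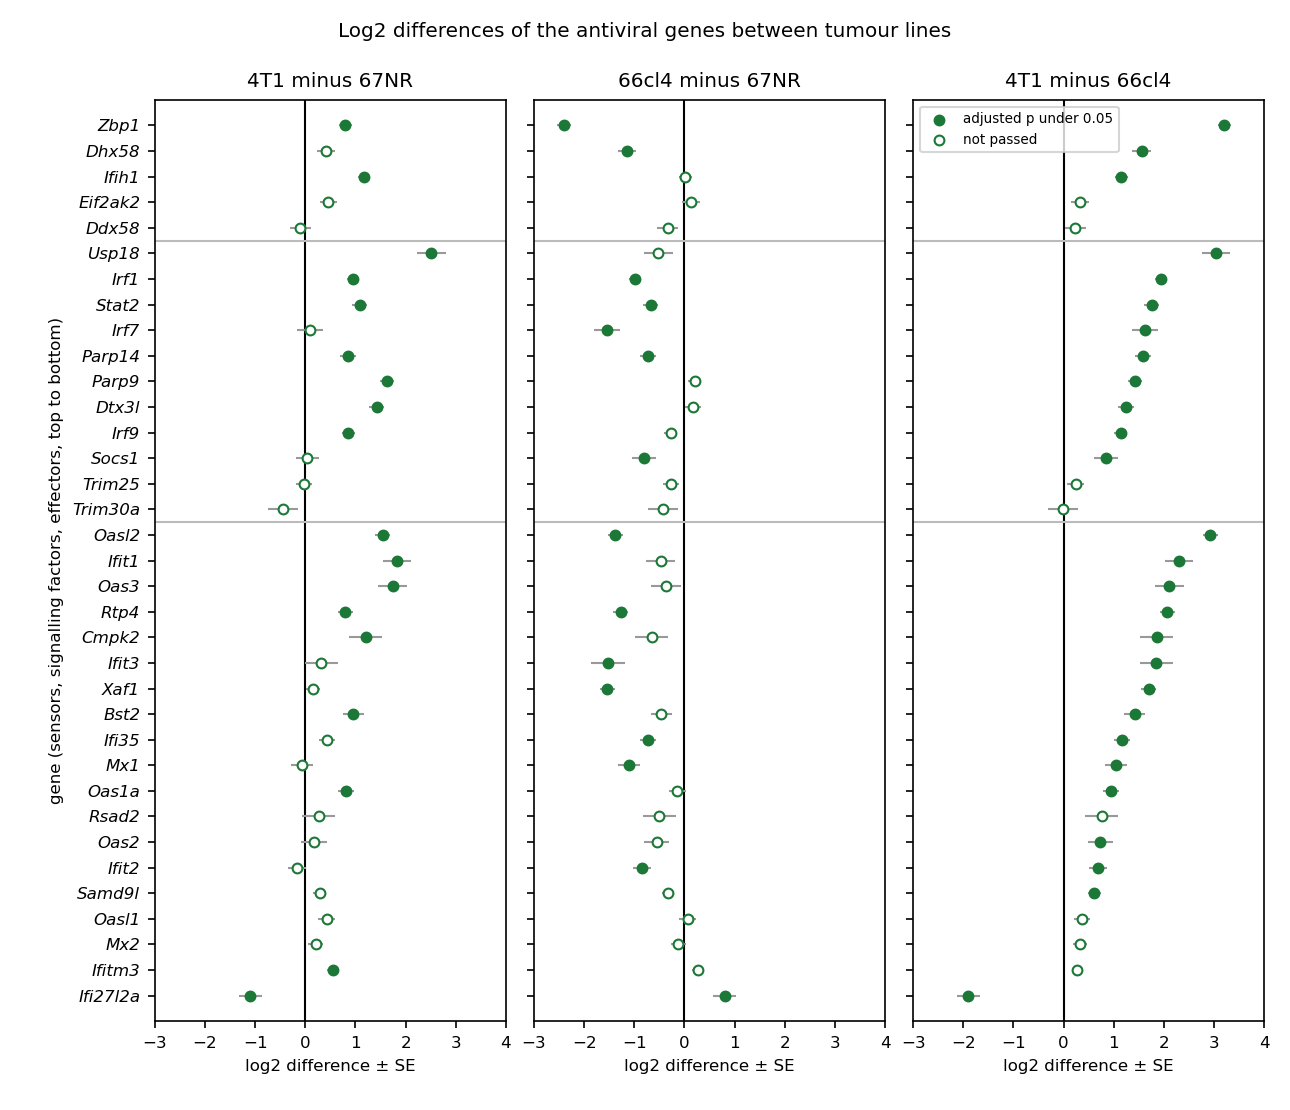
Log2 difference ± SE (3 arrays per line, x axis) of each antiviral gene (y axis, by role) in the 3 comparisons, with filled points for adjusted p under 0.05. Points lie mostly right of 0 in 4T1 minus 67NR (17 filled), left of 0 in 66cl4 minus 67NR (14 filled) and right of 0 in 4T1 minus 66cl4 (26 filled), with Ifi27l2a on the opposite side in each.

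By call, 6 genes were both higher in 4T1 and lower in 66cl4 than in 67NR, and also higher in 4T1 than in 66cl4: Zbp1, Stat2, Irf1, Parp14, Oasl2 and Rtp4. That pattern was found in 1.7% of all genes tested. With the running number as a covariate Zbp1, Parp14 and Rtp4 lost the call between 4T1 and 67NR and Stat2 that between 66cl4 and 67NR, which left Irf1 and Oasl2 with all 3 calls. Another 10 were higher in 4T1 than in both other lines, with no call between 66cl4 and 67NR (Ifih1, Irf9, Usp18, Parp9, Dtx3l, Ifit1, Oas1a, Oas3, Bst2 and Cmpk2), a pattern of 7.02% of all genes, where Ifit1, Oas1a, Oas3, Bst2 and Cmpk2 lost the call against 67NR with that covariate. Of these 10, Usp18, Ifit1 and Bst2 passed as lower in 66cl4 than in 67NR when only those lines were fitted. A further 8 were lower in 66cl4 than in both other lines, with no call between 4T1 and 67NR (Dhx58, Irf7, Socs1, Ifit2, Ifit3, Mx1, Ifi35 and Xaf1), a pattern of 4.13% of all genes. Oas2 and Samd9l passed, as higher, only in 4T1 against 66cl4, a pattern of 2.33% of all genes. Ifitm3 passed, as higher, only in 4T1 against 67NR, as did 2.41% of all genes. Ifi27l2a had the reverse of the first pattern, which was found in 2.07% of all genes. The remaining 7, Ddx58, Eif2ak2, Trim25, Trim30a, Rsad2, Oasl1 and Mx2, passed in no comparison, as did 38.7% of all genes.

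Among the 5 sensors of nucleic acid, 2 were higher in 4T1 than in 67NR, 2 were lower in 66cl4 than in 67NR and 3 were higher in 4T1 than in 66cl4, with no call in the other directions. Of all genes tested, 19.4%, 16% and 17.9% had those calls. Zbp1, which binds left-handed nucleic acid and can start cell death, read 9.57, 10.03 and 10.00 in 4T1 tumours, 6.66, 6.58 and 6.76 in 66cl4 tumours and 9.05, 9.11 and 9.04 in 67NR tumours. The 3 lines were fully separated, and the 66cl4 arrays lay far below both others. The log2 difference was 3.20 ± 0.13 between 4T1 and 66cl4 (9.21-fold, adjusted p = 1.43e-07), the largest of any member. It was 0.80 ± 0.13 in 4T1 (1.74-fold, adjusted p = 0.00101) and -2.40 ± 0.13 in 66cl4 (adjusted p = 2.24e-06), each against 67NR. A dimmer second probe set of Zbp1 gave smaller differences of 2.58 in 4T1 against 66cl4 and -1.70 in 66cl4 against 67NR, with 0.89 in 4T1 against 67NR.

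Ifih1, the sensor of long double-stranded RNA also called MDA5, read 8.91, 8.85 and 9.27 in 4T1 tumours, 7.84, 7.83 and 7.90 in 66cl4 tumours and 7.99, 7.81 and 7.73 in 67NR tumours. It was high in 4T1 alone, and the other lines overlapped. The difference was 1.17 ± 0.13 in 4T1 against 67NR (2.25-fold, adjusted p = 8.13e-05), 0.02 ± 0.13 in 66cl4 against 67NR (adjusted p = 0.93) and 1.15 ± 0.13 in 4T1 against 66cl4 (adjusted p = 9.02e-05). Dhx58, the helicase LGP2 that tunes the other RNA sensors, read 7.93, 7.93 and 8.61 in 4T1 tumours, 6.75, 6.40 and 6.66 in 66cl4 tumours and 7.81, 7.62 and 7.80 in 67NR tumours. The 66cl4 arrays stood lowest and the 4T1 arrays, though all above those of 67NR, lay close to them. Dhx58 fell in 66cl4 against 67NR by 1.14 on the log2 scale (adjusted p = 0.0011) and was higher in 4T1 than in 66cl4 by 1.56 ± 0.19 (adjusted p = 0.000139), while 0.41 ± 0.19 in 4T1 against 67NR did not pass (adjusted p = 0.107).

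Ddx58 (RIG-I), the sensor of uncapped RNA ends, read 8.70, 8.68 and 9.40 in 4T1 tumours, 8.84, 8.39 and 8.84 in 66cl4 tumours and 9.18, 9.06 and 8.84 in 67NR tumours. Its 3 lines overlapped throughout, with differences of -0.10 ± 0.21 in 4T1 against 67NR (adjusted p = 0.744), -0.34 ± 0.21 in 66cl4 against 67NR (adjusted p = 0.243) and 0.24 ± 0.21 in 4T1 against 66cl4 (adjusted p = 0.404). Eif2ak2, the kinase PKR that halts translation on double-stranded RNA, read 7.85, 7.50 and 7.28 in 4T1 tumours, 7.04, 7.38 and 7.22 in 66cl4 tumours and 6.80, 7.30 and 7.15 in 67NR tumours. These values overlapped between the lines too, and the nearest to a call was 0.46 ± 0.18 in 4T1 against 67NR (adjusted p = 0.0639). Without 4T1 replicate 3 this difference was 0.59 and passed (adjusted p = 0.0301). Ddx58 and Eif2ak2 are the sensors whose windows are printed above, each with the core just after the start.

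The 11 signalling factors gave the highest median differences of the roles in both comparisons with 4T1: 0.86 in 4T1 against 67NR with 7 higher, -0.52 in 66cl4 against 67NR with 5 lower, and 1.42 in 4T1 against 66cl4 with 9 higher. None of the 11 was called in the opposite direction. The shares of all genes tested with the calls just given were 19.4%, 16% and 17.9%. Stat2, which joins Irf9 in the complex that binds the response element, read 8.09, 8.13 and 8.32 in 4T1 tumours, 6.29, 6.24 and 6.73 in 66cl4 tumours and 7.24, 7.15 and 6.90 in 67NR tumours. All 3 lines were apart, in the order of the group. The difference was 1.08 ± 0.15 in 4T1 against 67NR (adjusted p = 0.000403), -0.67 ± 0.15 in 66cl4 against 67NR (adjusted p = 0.00703) and 1.76 ± 0.15 in 4T1 against 66cl4 (3.38-fold, adjusted p = 1.8e-05). Irf9, the DNA-binding part of that complex, read 8.66, 8.73 and 9.00 in 4T1 tumours, 7.66, 7.53 and 7.78 in 66cl4 tumours and 8.05, 7.92 and 7.84 in 67NR tumours. Its arrays were separated in the same order, but with a small step between 66cl4 and 67NR. It rose in 4T1 against 67NR by 0.86 ± 0.12 (adjusted p = 0.000429) and against 66cl4 by 1.14 ± 0.12 (adjusted p = 7.4e-05), and -0.28 ± 0.12 in 66cl4 against 67NR did not pass (adjusted p = 0.108).

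Irf1, a transcription factor induced by interferon gamma, read 11.48, 11.61 and 11.76 in 4T1 tumours, 9.71, 9.57 and 9.77 in 66cl4 tumours and 10.77, 10.71 and 10.49 in 67NR tumours. Arrays of a line differed little and the lines did not overlap. Irf1 was 1.94-fold higher in 4T1 than in 67NR (0.96 ± 0.12, adjusted p = 0.000181) and lower in 66cl4 than in 67NR (-0.98 ± 0.12, adjusted p = 0.000206), which puts 4T1 3.82-fold above 66cl4 (adjusted p = 1.81e-06). Irf7, which drives the production of interferon alpha, read 8.73, 8.79 and 9.60 in 4T1 tumours, 7.37, 7.44 and 7.42 in 66cl4 tumours and 9.46, 8.70 and 8.69 in 67NR tumours. Here 4T1 and 67NR overlapped and 66cl4 lay below both. The difference of 66cl4 from 67NR was -1.54 ± 0.26 (adjusted p = 0.00132) and that of 4T1 from 66cl4 1.63 ± 0.26 (adjusted p = 0.00078), with 0.09 ± 0.26 between 4T1 and 67NR (adjusted p = 0.814).

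The inhibitors of the pathway did not move alike. Usp18, a protease that removes Isg15 from proteins and damps the type I receptor, read 9.16, 9.67 and 10.46 in 4T1 tumours, 6.73, 6.40 and 7.06 in 66cl4 tumours and 7.30, 7.26 and 7.18 in 67NR tumours. The 4T1 arrays lay far above the rest and spread over 1.30 log2 units among themselves, with replicate 3 highest. Usp18 had the largest difference of any member between 4T1 and 67NR, 2.52 ± 0.29 (5.72-fold, adjusted p = 0.000102). It was 8.21-fold higher in 4T1 than in 66cl4 (adjusted p = 3.1e-05), and its -0.52 ± 0.29 in 66cl4 against 67NR did not pass (adjusted p = 0.187). That difference of Usp18 did pass when only 66cl4 and 67NR were fitted (adjusted p = 0.0356). Socs1, which blocks the receptor kinases, read 7.52, 8.02 and 8.22 in 4T1 tumours, 6.96, 7.07 and 7.21 in 66cl4 tumours and 7.37, 7.99 and 8.27 in 67NR tumours. The 4T1 and 67NR arrays overlapped, and the 66cl4 arrays were below both. It passed as lower in 66cl4 than in 67NR (-0.80 ± 0.24, adjusted p = 0.0252) and as higher in 4T1 than in 66cl4 (0.84 ± 0.24, adjusted p = 0.0176). Both calls rested on few arrays: the first was lost without 66cl4 replicate 1, 66cl4 replicate 2, 67NR replicate 2 or 67NR replicate 3, and the second without 4T1 replicate 2, 4T1 replicate 3 or 66cl4 replicate 1. The first was also lost with the running number (adjusted p = 0.126) or the controls (adjusted p = 0.117) as a covariate.

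Parp9 and Dtx3l are neighbours on chromosome 16 whose proteins work as 1 complex that strengthens the interferon response. Parp9 read 10.16, 10.38 and 10.34 in 4T1 tumours, 8.89, 8.78 and 8.94 in 66cl4 tumours and 8.95, 8.54 and 8.51 in 67NR tumours. Dtx3l read 9.99, 10.03 and 10.50 in 4T1 tumours, 8.98, 8.82 and 8.98 in 66cl4 tumours and 8.97, 8.71 and 8.58 in 67NR tumours. Both were high in 4T1 and overlapped between 66cl4 and 67NR. Parp9 was 3.09-fold higher in 4T1 than in 67NR (1.63 ± 0.13, adjusted p = 1.37e-05) and 2.68-fold higher than in 66cl4 (adjusted p = 3.13e-05). For Dtx3l the differences were 1.42 ± 0.16 (adjusted p = 8.18e-05) and 1.25 ± 0.16 (adjusted p = 0.000189). Parp14, another ADP-ribosyltransferase of chromosome 16, read 9.40, 9.67 and 9.94 in 4T1 tumours, 8.01, 8.01 and 8.26 in 66cl4 tumours and 8.98, 8.88 and 8.61 in 67NR tumours. It separated all 3 lines, with 0.85 ± 0.16 in 4T1 against 67NR (adjusted p = 0.00211), -0.73 ± 0.16 in 66cl4 against 67NR (adjusted p = 0.00553) and 1.58 ± 0.16 in 4T1 against 66cl4 (adjusted p = 4.66e-05). The first did not pass with the running number (0.71, adjusted p = 0.109) or the hybridization controls (0.79, adjusted p = 0.0975) as a covariate. A dim second probe set of Parp14 did not pass in 66cl4 against 67NR (-0.18, adjusted p = 0.311), and a second one of Dtx3l missed the threshold in 4T1 against 66cl4 (0.87, adjusted p = 0.0506).

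Trim25, the ubiquitin ligase that activates RIG-I, read 9.73, 9.73 and 10.24 in 4T1 tumours, 9.67, 9.61 and 9.70 in 66cl4 tumours and 10.15, 9.96 and 9.66 in 67NR tumours. The 4T1 and 67NR values overlapped, the 4T1 arrays lay just above those of 66cl4, and no difference passed, the largest being -0.26 ± 0.17 in 66cl4 against 67NR (adjusted p = 0.247). Trim30a, a ligase of rodents that restrains Toll-like receptor signalling, read 8.56, 9.13 and 9.90 in 4T1 tumours, 9.29, 9.21 and 9.13 in 66cl4 tumours and 9.61, 10.02 and 9.27 in 67NR tumours. All lines overlapped and the 4T1 arrays covered 1.34 log2 units. Its differences were -0.44 ± 0.30 in 4T1 against 67NR (adjusted p = 0.286), -0.43 ± 0.30 in 66cl4 against 67NR (adjusted p = 0.303) and -0.01 ± 0.30 in 4T1 against 66cl4 (adjusted p = 0.984). Without 4T1 replicate 3, the highest of them, Trim30a was lower in 4T1 than in 67NR (-0.79, adjusted p = 0.0255). Its other probe set passed as lower in 66cl4 than in 67NR (-0.84, adjusted p = 0.00858), and signals of the near-identical Trim30 family cannot be fully told apart on probes.

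**Figure D3:**
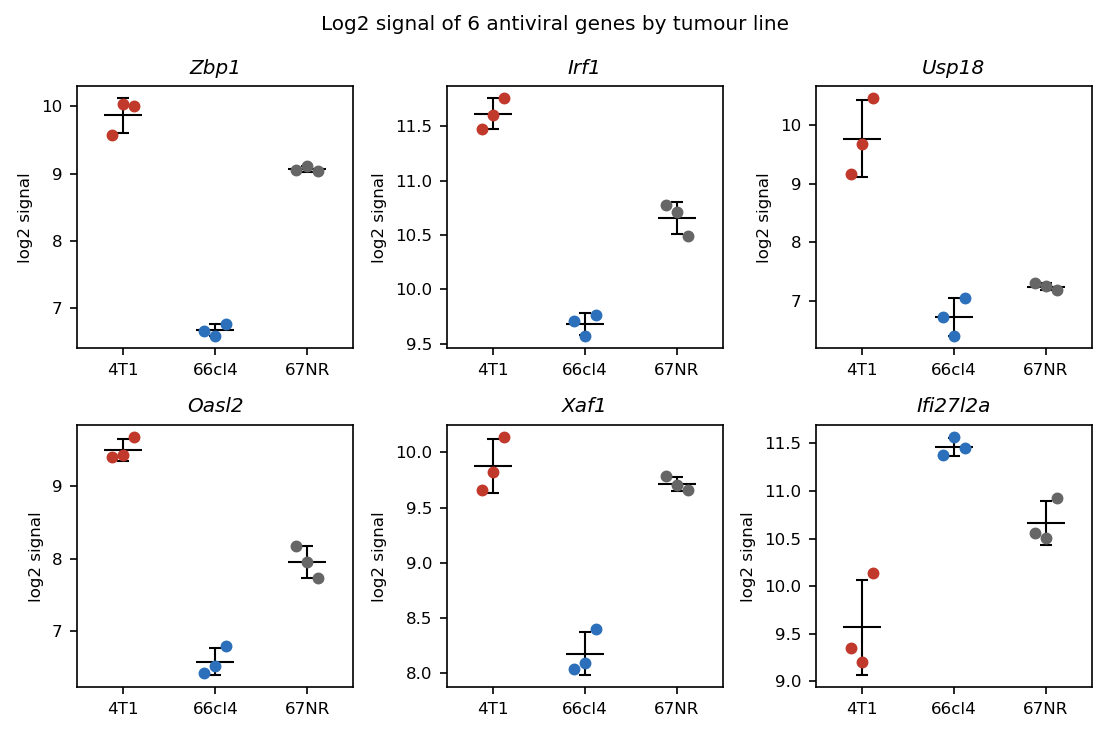
Log2 signal (y axis) of 6 antiviral genes on each array, by tumour line (x axis), points for the 3 replicates and lines for their mean ± SD. Zbp1, Irf1 and Oasl2 separate all 3 lines in the order 4T1, 67NR, 66cl4, Usp18 is high in 4T1, Xaf1 is low in 66cl4, and Ifi27l2a is highest in 66cl4.

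The 19 measured effectors gave 8 higher and 1 lower in 4T1 than in 67NR (median 0.43), 1 higher and 7 lower in 66cl4 than in 67NR (median -0.50), and 14 higher and 1 lower in 4T1 than in 66cl4 (median 1.04). For all genes tested the shares higher and lower were 19.4% and 20.5%, 20% and 16%, and 17.9% and 23.4%, in the same order. Oasl2, an oligoadenylate synthetase-like protein, read 9.40, 9.43 and 9.68 in 4T1 tumours, 6.43, 6.52 and 6.80 in 66cl4 tumours and 8.18, 7.96 and 7.73 in 67NR tumours. The lines did not overlap, and each kept to a narrow range. It was 2.92-fold higher in 4T1 than in 67NR (1.54 ± 0.15, adjusted p = 3.65e-05), lower in 66cl4 than in 67NR (-1.38 ± 0.15, adjusted p = 0.000106) and 7.57-fold higher in 4T1 than in 66cl4 (adjusted p = 5.27e-07).

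Its relatives on chromosome 5, the synthetases whose product activates RNase L, were not alike. Oas1a read 10.26, 10.34 and 10.91 in 4T1 tumours, 9.57, 9.51 and 9.58 in 66cl4 tumours and 9.84, 9.63 and 9.60 in 67NR tumours. The 3 lines were separated, 66cl4 from 67NR by a narrow margin. It was higher in 4T1 than in 67NR by 0.81 ± 0.16 (adjusted p = 0.00314) and than in 66cl4 by 0.95 ± 0.16 (adjusted p = 0.00127), the first call being lost with the running number (0.42, adjusted p = 0.255) or the controls (0.61, adjusted p = 0.18) as a covariate. Oas3 read 6.85, 6.89 and 8.10 in 4T1 tumours, 5.12, 5.06 and 5.34 in 66cl4 tumours and 5.77, 5.54 and 5.31 in 67NR tumours. The 4T1 arrays were above the rest, replicate 3 by over 1 log2 unit above its own group, and some 66cl4 and 67NR values were near background. Oas3 was 3.35-fold higher in 4T1 than in 67NR (1.74 ± 0.29, adjusted p = 0.00119) and 4.32-fold higher than in 66cl4 (adjusted p = 0.000366). The difference from 67NR was 1.05 with the running number as a covariate (adjusted p = 0.139) and 1.40 with the hybridization controls (adjusted p = 0.101), neither past the threshold. Oas2 ranged over 7.41 to 8.39 in 4T1, 6.72 to 7.38 in 66cl4 and 7.45 to 7.83 in 67NR. Only 4T1 against 66cl4 passed for Oas2, by 0.73 ± 0.25 (adjusted p = 0.0414), and that call was lost when any 1 array was left out except 4T1 replicate 2 and 66cl4 replicate 3, and with either covariate (adjusted p = 0.14 and 0.268). It was also lost when only 4T1 and 66cl4 were fitted (adjusted p = 0.0763). When only 66cl4 and 67NR were fitted, Oas2 passed as lower in 66cl4 (-0.56, adjusted p = 0.0468). Oasl1, which limits Irf7 translation in mice, passed nowhere and its difference was 0.43 ± 0.16 in 4T1 against 67NR (adjusted p = 0.0636), although the arrays of these lines did not overlap.

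The Ifit genes of chromosome 19, whose proteins bind RNA that lacks the cap marks of the host, also split. Ifit1 read 7.69, 7.97 and 9.02 in 4T1 tumours, 5.73, 5.95 and 6.08 in 66cl4 tumours and 6.37, 6.41 and 6.41 in 67NR tumours. The 4T1 arrays were highest and spread widely, and 66cl4 lay below 67NR by a step that did not pass. This step of -0.47 passed when only 66cl4 and 67NR were fitted (adjusted p = 0.0117) and without 4T1 replicate 3 (adjusted p = 0.0138). Ifit1 rose in 4T1 against 67NR by 1.83 ± 0.28 (3.55-fold, adjusted p = 0.000705) and against 66cl4 by 2.30 ± 0.28 (4.94-fold, adjusted p = 0.000168), and the call against 67NR was lost with the running number as a covariate (1.37, adjusted p = 0.0811). Ifit3 read 8.01, 7.87 and 9.33 in 4T1 tumours, 6.29, 6.48 and 6.90 in 66cl4 tumours and 8.20, 8.04 and 8.001 in 67NR tumours. The 67NR values lay within the range of 4T1, where replicate 3 stood over 1 log2 unit above the others, and 66cl4 was below both. Ifit3 fell in 66cl4 against 67NR by 1.53 (adjusted p = 0.00585) and was 3.60-fold higher in 4T1 than in 66cl4 (adjusted p = 0.00172). Ifit2 ranged over 8.47 to 9.11 in 4T1, 7.88 to 8.33 in 66cl4 and 8.79 to 9.10 in 67NR. It was lower in 66cl4 than in 67NR (-0.85 ± 0.18, adjusted p = 0.005) and higher in 4T1 than in 66cl4 (0.68 ± 0.18, adjusted p = 0.0129), and this last call was lost without 66cl4 replicate 2 (0.59, adjusted p = 0.0503).

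Rtp4, a chaperone of membrane receptors that also restricts flaviviruses, read 10.27, 10.34 and 10.75 in 4T1 tumours, 8.36, 8.23 and 8.56 in 66cl4 tumours and 9.82, 9.51 and 9.64 in 67NR tumours. Its lines were fully separated. The difference of Rtp4 was 0.80 ± 0.15 in 4T1 against 67NR (adjusted p = 0.00237), -1.27 ± 0.15 in 66cl4 against 67NR (adjusted p = 0.000191) and 2.07 ± 0.15 in 4T1 against 66cl4 (4.20-fold, adjusted p = 6.15e-06), and the first of these did not pass with the running number (0.59, adjusted p = 0.146) or the controls (0.75, adjusted p = 0.101) as a covariate. Xaf1, an antagonist of the caspase inhibitor XIAP, read 9.66, 9.82 and 10.14 in 4T1 tumours, 8.03, 8.10 and 8.40 in 66cl4 tumours and 9.78, 9.70 and 9.66 in 67NR tumours. Values of 4T1 and 67NR overlapped, and every 66cl4 array was more than 1 log2 unit below both. Xaf1 fell in 66cl4 against 67NR by 1.54 (adjusted p = 4.54e-05) and was 3.24-fold higher in 4T1 than in 66cl4 (adjusted p = 1.65e-05), with 0.16 ± 0.14 between 4T1 and 67NR (adjusted p = 0.431). Ifi35, a small protein that binds the Stat-interacting factor Nmi, read 11.08, 10.96 and 11.37 in 4T1 tumours, 10.04, 9.94 and 9.94 in 66cl4 tumours and 11.02, 10.65 and 10.45 in 67NR tumours. The 66cl4 arrays were lowest, and 67NR replicate 1 lay among the 4T1 arrays. It was lower in 66cl4 than in 67NR (-0.73 ± 0.16, adjusted p = 0.0055) and higher in 4T1 than in 66cl4 (1.17 ± 0.16, adjusted p = 0.000315). In 4T1 against 67NR its brightest probe set missed the threshold (0.43 ± 0.16, adjusted p = 0.0545), and its other 2 passed (0.60, adjusted p = 0.00336, and 0.90, adjusted p = 0.000186).

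Bst2 (tetherin), which holds budding virus on the cell, read 9.67, 10.15 and 10.65 in 4T1 tumours, 8.63, 8.76 and 8.82 in 66cl4 tumours and 9.25, 9.09 and 9.26 in 67NR tumours. The lines were separated, and the 4T1 arrays spread most. Bst2 was 1.94-fold higher in 4T1 than in 67NR (0.95 ± 0.21, adjusted p = 0.00478) and 2.67-fold higher than in 66cl4 (adjusted p = 0.000487). Its call against 67NR was lost with the running number (0.69, adjusted p = 0.209) and with the hybridization controls (1.09, adjusted p = 0.0808) as a covariate. In 66cl4 against 67NR Bst2 did not pass (-0.46 ± 0.21, adjusted p = 0.112), but it did when only those lines were fitted (adjusted p = 0.00833). Cmpk2, a mitochondrial nucleotide kinase, read 6.90, 7.16 and 8.17 in 4T1 tumours, 4.96, 5.94 and 5.77 in 66cl4 tumours and 6.15, 6.24 and 6.22 in 67NR tumours. The 4T1 arrays were again highest and spread widely, and 66cl4 replicate 1 lay near background. Cmpk2 rose in 4T1 against 67NR by 1.21 ± 0.33 (adjusted p = 0.015) and against 66cl4 by 1.86 ± 0.33 (adjusted p = 0.00151), and its second, dimmer probe set gave 0.49 and 0.72. The call of Cmpk2 against 67NR was lost with either covariate (adjusted p = 0.207 with the running number and 0.128 with the controls). Mx1, a GTPase that blocks influenza virus and is defective as a protein in most inbred mouse strains including BALB/c, read 5.98, 6.09 and 6.76 in 4T1 tumours, 4.95, 5.33 and 5.42 in 66cl4 tumours and 6.23, 6.61 and 6.20 in 67NR tumours. The 4T1 and 67NR values overlapped and those of 66cl4 were lowest, close to background in replicate 1. It was lower in 66cl4 than in 67NR (-1.11 ± 0.22, adjusted p = 0.00329) and 2.06-fold higher in 4T1 than in 66cl4 (adjusted p = 0.00402).

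Ifi27l2a, a small membrane protein of the Ifi27 family, ran against the rest. It read 9.35, 9.21 and 10.14 in 4T1 tumours, 11.38, 11.57 and 11.45 in 66cl4 tumours and 10.55, 10.51 and 10.92 in 67NR tumours. The 66cl4 arrays were highest and the 4T1 arrays lowest, with no overlap. Ifi27l2a was lower in 4T1 than in 67NR (-1.10 ± 0.22, adjusted p = 0.00344) and than in 66cl4 (-1.90 ± 0.22, adjusted p = 0.000133). It was 1.74-fold higher in 66cl4 than in 67NR (adjusted p = 0.0192), the only member with that call, which was lost without 66cl4 replicate 2, 67NR replicate 1 or 67NR replicate 2 (0.73 to 0.75, adjusted p = 0.0617 to 0.0693). That call was also lost with the running number (0.53, adjusted p = 0.198) or the hybridization controls (0.81, adjusted p = 0.0573) as a covariate, and the one in 4T1 against 67NR with the controls (-1.07, adjusted p = 0.11).

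Of the effectors not yet described, Ifitm3, which blocks the fusion of virus with the cell membrane, ranged over 13.33 to 13.61 in 4T1, 13.07 to 13.32 in 66cl4 and 12.86 to 12.92 in 67NR. These values are near the top of the signal range, which ends at 14.80, and it passed in 4T1 against 67NR alone (0.54 ± 0.11, adjusted p = 0.0038), a call lost with either covariate (adjusted p = 0.15 with the running number and 0.125 with the controls). Samd9l, a translation inhibitor, was higher in 4T1 (9.39 to 9.68) than in 66cl4 (8.68 to 9.07) by 0.62 ± 0.13 (adjusted p = 0.00342). Rsad2 (viperin), which makes a chain-terminating nucleotide, had 0.76 ± 0.33 in 4T1 against 66cl4 (adjusted p = 0.0897), and another, dimmer probe set passed there (1.42, adjusted p = 0.00871). Mx2, the companion of Mx1, had 0.33 ± 0.14 in the same comparison (adjusted p = 0.0981) and passed nowhere.

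The 3 tumours of a line did not vary alike. The range over its 3 arrays had a median of 0.57 log2 units across the 35 genes in 4T1, 0.28 in 66cl4 and 0.33 in 67NR. In 4T1, replicate 3 was the highest of its group for 32 of the 35 genes and replicate 1 the lowest for 25. In 67NR, replicate 1 was the highest for 22 and replicate 3 the lowest for 24. Without 4T1 replicate 3, 18 genes were higher and 2 lower in 4T1 than in 67NR, 1 was higher and 18 lower in 66cl4 than in 67NR, and 24 were higher and 1 lower in 4T1 than in 66cl4. The counts in 4T1 were thus about as large without that tumour, although Irf7, Ifit3, Rsad2, Oas2 and Socs1, none of which passed between 4T1 and 67NR, changed sign there without it.

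Upstream of these genes, few interferon transcripts were measurable. Of 21 listed ligands 10 had a probe set and 4 passed the filter on low signal (Ifna1, Ifna9, Ifnz and Ifng). Ifnb1, among the first interferons made on sensing, exceeded background only on the array of 66cl4 replicate 1, and Ifna2, Ifna4, Ifna5, Ifna11 and Ifnab did so on none. Ifng, the gene of interferon gamma, read 5.35, 6.67 and 6.57 in 4T1 tumours, 3.59, 3.78 and 3.56 in 66cl4 tumours and 6.08, 5.34 and 5.42 in 67NR tumours. It was above background on all 4T1 and 67NR arrays and on no 66cl4 array. Ifng was therefore at least 2.44-fold higher in 4T1 than in 66cl4 (adjusted p = 0.000206) and at least 1.63-fold lower in 66cl4 than in 67NR (adjusted p = 0.00118), the bound taking each 66cl4 array at its background. Between 4T1 and 67NR it differed by 0.58 ± 0.32 (adjusted p = 0.189). Ifnz, an interferon zeta gene, ran the other way, with 1.12 ± 0.13 in 66cl4 against 67NR (adjusted p = 0.000129) and -1.20 ± 0.13 in 4T1 against 66cl4 (adjusted p = 6.38e-05). Ifna1 and Ifna9 passed in no comparison, and interferon alpha genes are near-identical copies that a probe cannot fully separate.

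**Figure D4:**
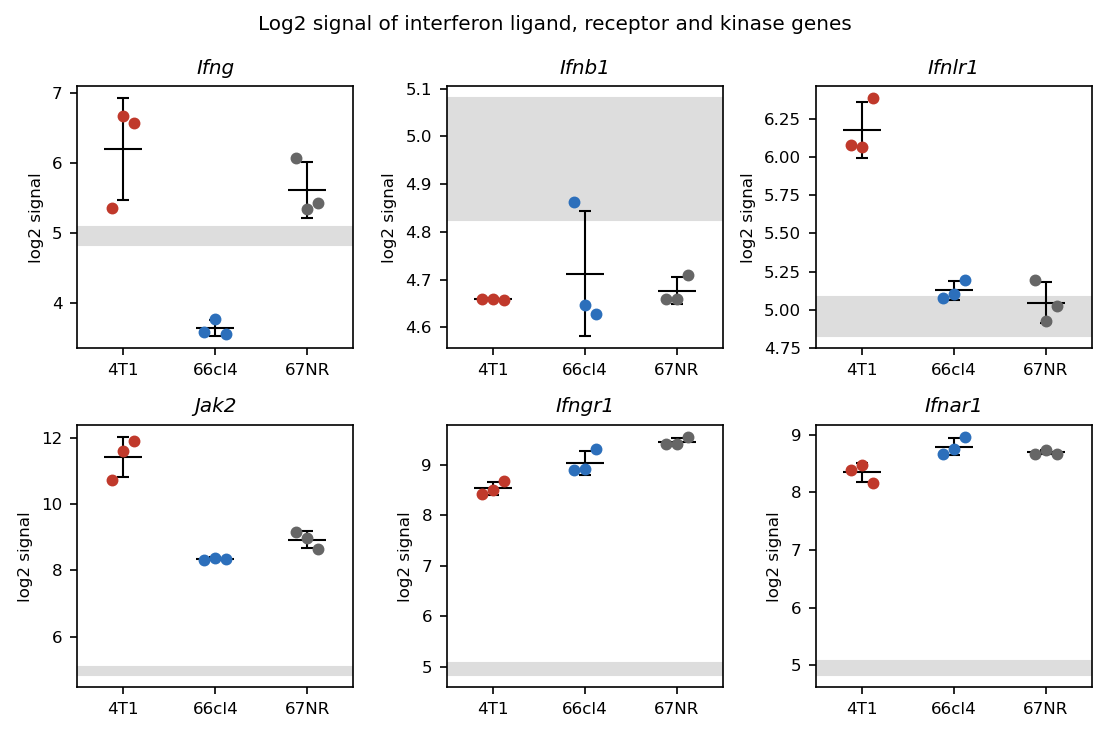
Log2 signal (y axis) of Ifng, Ifnb1, Ifnlr1, Jak2, Ifngr1 and Ifnar1 on each array, by tumour line (x axis), points for the 3 replicates and lines for their mean ± SD, with background (4.83 to 5.08) as a grey band. Ifng lies below the band in 66cl4 and above it in 4T1 and 67NR, Ifnb1 lies at or below it in every line, and Jak2 is highest in 4T1.

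Of the 9 measured receptors and kinases, 3 were higher and 4 lower in 4T1 than in 67NR, 2 were lower in 66cl4 than in 67NR, and 2 were higher and 4 lower in 4T1 than in 66cl4. Among all genes tested those calls had shares of 19.4% and 20.5%, 16%, and 17.9% and 23.4%. Jak2, the kinase of the interferon gamma receptor and of several cytokine receptors, read 10.74, 11.60 and 11.92 in 4T1 tumours, 8.30, 8.38 and 8.36 in 66cl4 tumours and 9.14, 8.97 and 8.64 in 67NR tumours. Its 4T1 arrays were far above the rest, with 2.50 ± 0.26 against 67NR (5.64-fold, adjusted p = 5.94e-05) and 3.07 ± 0.26 against 66cl4 (8.40-fold, adjusted p = 1.55e-05). Ifnlr1, the specific chain of the interferon lambda receptor, whose 66cl4 and 67NR signals were close to background, was also higher in 4T1 than in 67NR (1.13 ± 0.12, adjusted p = 6.76e-05) and than in 66cl4 (1.05 ± 0.12, adjusted p = 0.000108). Ifngr2 was the third gene higher in 4T1 than in 67NR (0.50 ± 0.18, adjusted p = 0.0477). The ligand-binding chain Ifngr1 was lower in 4T1 than in 67NR (-0.93 ± 0.13, adjusted p = 0.000459), as were Ifnar1 (-0.34 ± 0.12, adjusted p = 0.0394), Jak1 (-0.75 ± 0.14, adjusted p = 0.00178) and Il10rb (-0.79 ± 0.14, adjusted p = 0.00178). The genes higher in 4T1 thus did not include the shared kinase Jak1 or the type I receptor chain Ifnar1.

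The 17 measured genes of the sensing route other than the sensors above had 4 higher and 3 lower in 4T1 than in 67NR (median 0.18), 2 higher and 3 lower in 66cl4 than in 67NR (median -0.09), and 3 higher and 1 lower in 4T1 than in 66cl4 (median 0.10). Those are 23.5% and 17.6%, 11.8% and 17.6%, and 17.6% and 5.88% of the 17. The shares of all genes tested were 19.4% and 20.5%, 20% and 16%, and 17.9% and 23.4%. In 4T1 against 67NR the list was thus near the shares of all genes. Tlr3, the endosomal receptor for double-stranded RNA, averaged 8.68 ± 0.23 in 4T1, 7.38 ± 0.22 in 66cl4 and 7.52 ± 0.06 in 67NR (SD, n = 3 each), whereas Tlr7, the receptor for single-stranded RNA, averaged 6.15 ± 0.18 in 4T1, 7.99 ± 0.22 in 66cl4 and 7.65 ± 0.21 in 67NR. Of 15 further antiviral effectors, 9 were higher and 2 lower in 4T1 than in 67NR, 3 were higher and 4 lower in 66cl4 than in 67NR, and 9 were higher and 1 lower in 4T1 than in 66cl4. Beside the same shares of all genes, these are 60% and 13.3%, 20% and 26.7%, and 60% and 6.67% of the 15. Ifitm1, a relative of Ifitm3, averaged 10.80 ± 0.35 in 4T1, 7.73 ± 0.29 in 66cl4 and 7.67 ± 0.51 in 67NR, and Ifitm2 averaged 11.78 ± 0.22 in 4T1, 12.79 ± 0.03 in 66cl4 and 12.53 ± 0.02 in 67NR. Herc6, the mouse ligase that attaches Isg15, averaged 9.16 ± 0.30 in 4T1, 7.16 ± 0.34 in 66cl4 and 7.80 ± 0.12 in 67NR.

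Markers of host cells also differed between the lines, and in bulk tissue fewer cells of a type and less RNA per cell cannot be told apart. For the counts that follow, 19.4% of all genes tested were higher and 20.5% lower in 4T1 than in 67NR. In 66cl4 against 67NR the shares were 20% and 16%, and in 4T1 against 66cl4 they were 17.9% and 23.4%. All 9 measured T cell markers were lower in 66cl4 than in 67NR, 5 were higher in 4T1 than in 66cl4, and 1 was lower and none higher in 4T1 than in 67NR. Their summed linear signal was 772 to 1308.5 on 4T1 arrays, 424 to 599 on 66cl4 arrays and 1027.6 to 1689.1 on 67NR arrays. The T cell markers and Ifng were thus low in 66cl4, where 14 antiviral genes were lower than in 67NR, and their part in that result was not tested. Between 4T1 and 67NR, where 17 antiviral genes were higher in 4T1, no T cell marker passed as higher, and Ifng differed by 0.58 ± 0.32 (adjusted p = 0.189). The part of T cells and Ifng in that result was not tested either. In both comparisons with 4T1 macrophage and monocyte markers ran the other way from the antiviral genes. Of these 11 markers 10 were lower in 4T1 than in 67NR and 9 lower in 4T1 than in 66cl4. In 66cl4 against 67NR 4 were higher, 1 was lower and 6 did not pass, with a median log2 difference of 0.0025. Their summed signal was 17880 to 19218 in 4T1, 35060 to 47790 in 66cl4 and 33643 to 40276 in 67NR. Ifi27l2a had the same order of line means, and the part of macrophage content in its result was not tested.

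**Figure D5:**
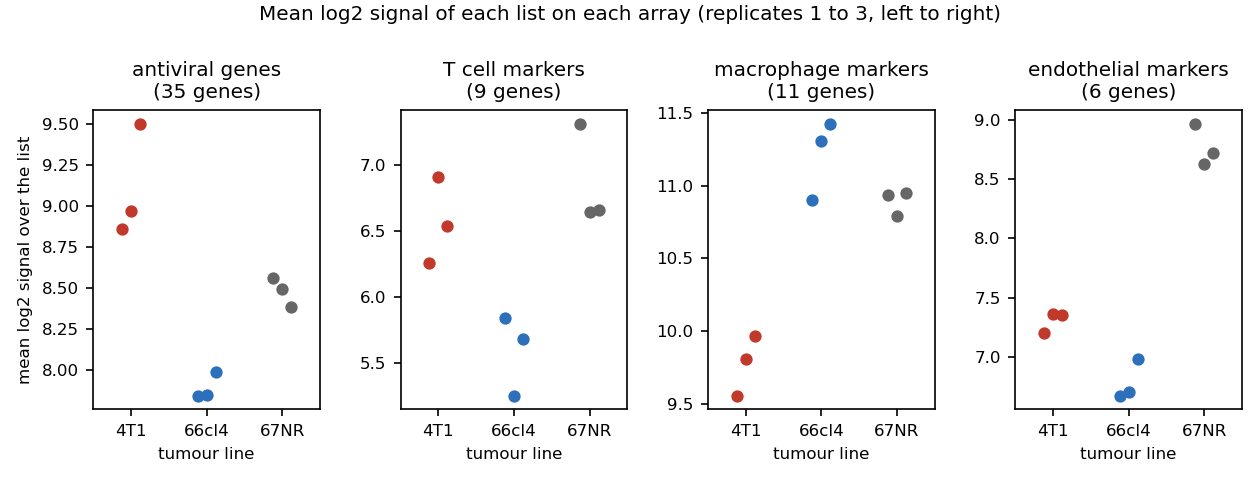
Mean log2 signal (y axis) of the 35 antiviral genes and of 9 T cell, 11 macrophage and 6 endothelial markers on each array, by tumour line (x axis), 1 point per array. The antiviral genes are highest in 4T1, T cell markers are lowest in 66cl4, macrophage markers are lowest in 4T1 and endothelial markers are highest in 67NR.

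All 6 endothelial markers were lower in 4T1 than in 67NR and lower in 66cl4 than in 67NR, with 3 higher in 4T1 than in 66cl4, and their summed signal was 979 to 1167.4 in 4T1, 680 to 825 in 66cl4 and 2670.4 to 3525.1 in 67NR. Of 5 natural killer cell markers, 5 were lower in 4T1 than in 67NR, and 1 was higher and 4 lower in 66cl4 than in 67NR, with 1 higher and 2 lower in 4T1 than in 66cl4. Of 6 fibroblast markers, 2 were higher and 3 lower in 4T1 than in 67NR, 2 were higher and 2 lower in 66cl4 than in 67NR, and 1 was higher and 3 lower in 4T1 than in 66cl4. Their summed signal was 1849 to 4588 in 4T1, 4821 to 5214 in 66cl4 and 10829 to 11207 in 67NR. Of 4 tested markers of plasmacytoid dendritic cells, the main source of interferon alpha in blood, 1 was lower in 4T1 than in 67NR and 1 was lower in 66cl4 than in 67NR. None was called between 4T1 and 66cl4. On every array 4 of the 5 listed markers of these cells were above background, and the fifth, Ccr9, was above it on none. Of 4 markers of conventional dendritic cells, 1 was lower in 4T1 than in 67NR, 2 were lower in 66cl4 than in 67NR and 1 was higher in 4T1 than in 66cl4. Neutrophil markers were higher in 4T1 for 3 of 7 against 67NR and 4 of 7 against 66cl4, and none of 3 B cell markers was called. The shares of all genes given with the T cell markers apply to these short lists too. The part of these cells in the antiviral results was not tested.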

How the data were processed

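The deposited values are log2 signals of 45101 Affymetrix probe sets on 9 arrays, 3 per line. No source used here states how the authors summarised and normalised these log2 values. Array medians of 5.51 to 5.58 made the arrays comparable as deposited, which a scaling that hid a shift common to all genes would also give. Probe sets were named from the platform annotation: 34958 had 1 gene symbol, 932 several and 9211 none, and 34754 of the first kind matched RefSeq (GRCm38.p6) through Entrez identifiers. Control probe sets were left out, and the brightest probe set stood for each of 18193 genes. Genes whose signal exceeded the array's percentile 40 in 3 or more arrays, 13409 in all, were tested, and 4784 were left out.

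limma 3.58.1 in R 4.3.3 fitted 3 line means over the 9 arrays with no covariate. Differences were tested with empirical Bayes moderation, two-sided, and a moderated F-test compared the 3 lines. Adjusted p-values are Benjamini-Hochberg over all genes tested with a threshold of 0.05, and SE is that of the fit. With 3 arrays against 3, an exact permutation test cannot go below p = 0.1, so none is given. The fits were tested on simulated data. Precision is limited by the number of arrays.

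The members, marker lists and tests were chosen with earlier results of these data known. Values of every array are given for all sensors and signalling factors and for the 12 effectors with the smallest F-test p, and other genes are named from the ligand and receptor lists or as the up to 4 genes of another list with the smallest F-test p. The alternatives tried were the mean over probe sets, no filter, quantile normalization, the running number, hybridization controls or replicate number as a further term, only the lines compared, leaving out each array, and each other probe set, the last chosen after seeing the data.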

Additional observations from a re-analysis of the deposited data

How the results depend on the processing

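Under other settings 1680 differences of single members were refitted. Of these 1565 kept their direction and side of the threshold, 43 lost the call with the same direction, 26 gained one, and 46 changed sign, none of them with a call in either fit. With the running number as a covariate, 2661 genes were called in 4T1 against 67NR instead of 5347, with 8 members higher. In 66cl4 against 67NR it left 0 members higher and moved their median from -0.50 to -0.77. With the hybridization controls as a covariate, 2151 genes were called in 4T1 against 67NR, with 10 members higher and 0 lower, and 0 members were higher in 66cl4 than in 67NR. Quantile normalization gave 2 members higher in 66cl4 than in 67NR. Fitting only the 2 lines compared gave 18 members lower in 66cl4 than in 67NR and 25 higher in 4T1 than in 66cl4. Leaving out 1 array gave 1 to 2 members lower in 4T1 than in 67NR, the second being Trim30a, and 0 to 1 higher in 66cl4 than in 67NR. It gave 17 to 18 higher in 4T1 than in 67NR, 13 to 18 lower in 66cl4 than in 67NR and 24 to 26 higher in 4T1 than in 66cl4. Why these counts moved was not tested. The fit with the replicate number as a block changed no call of a member (17 higher and 1 lower in 4T1 against 67NR, 1 and 14 in 66cl4 against 67NR, 26 and 1 in 4T1 against 66cl4) and called 5057, 4503 and 5179 genes. Same-numbered arrays correlated at -0.11 to 0.16 around their line means, so they share only a number.

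Signs turned in differences that passed in neither fit. In 4T1 against 67NR, the running number gave Dhx58 -0.11, Irf7 -0.46, Ifit3 -0.22, Rsad2 -0.71, Oas2 -0.45 and Mx2 -0.22, and the hybridization controls gave Irf7 -0.42, Ifit2 0.017, Rsad2 -0.52, Oas2 -0.22, Mx1 0.015, Mx2 -0.0057 and Ifi35 -0.025. In 66cl4 against 67NR, the running number gave Ifih1 -0.14, Dtx3l -0.067 and Oasl1 -0.052, the hybridization controls gave Ifih1 -0.069, and quantile normalization gave Ifih1 -0.050. Trim30a in 4T1 against 66cl4 was 0.21 with the mean of probe sets and 0.0064 with quantile normalization. Other probe sets gave Ddx58 0.14 and Trim25 0.062 in 4T1 against 67NR, Eif2ak2 -0.18 in 66cl4 against 67NR, and Ddx58 -0.0098 and Trim30a 0.43 in 4T1 against 66cl4. Leaving out 1 array gave, in 4T1 against 67NR, -0.34 to 0.024 for Ddx58, -0.14 to 0.58 for Ifit3, -0.19 to 0.35 for Irf7, -0.32 to 0.0775 for Mx1, -0.093 to 0.40 for Oas2, -0.077 to 0.52 for Rsad2, -0.21 to 0.24 for Socs1 and -0.19 to 0.090 for Trim25. It gave -0.012 to 0.24 for Eif2ak2, -0.040 to 0.090 for Ifih1 and -0.038 to 0.14 for Oasl1 in 66cl4 against 67NR, and 0.00 to 0.36 for Ddx58 and -0.36 to 0.31 for Trim30a in 4T1 against 66cl4. With the mean of probe sets, Dhx58 differed by 0.84 and Rtp4 by 1.48 in 4T1 against 66cl4, and Xaf1 by -0.87 in 66cl4 against 67NR, each still past the threshold. Probe sets near background, as for Cmpk2, Mx1 and Oas3 in 66cl4, can understate a difference.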

Other observations

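Other genes induced by interferon had the same order of lines in their medians. For the calls that follow, the shares of all genes tested were 19.4% higher in 4T1 than in 67NR, 16% lower in 66cl4 than in 67NR and 17.9% higher in 4T1 than in 66cl4. Of 9 measured interferon-induced GTPases, which attack vacuoles that hold microbes, 8 were higher in 4T1 than in 67NR (median log2 difference 1.10), 9 were lower in 66cl4 than in 67NR (median -2.46) and 9 were higher in 4T1 than in 66cl4 (median 3.72). Iigp1, a GTPase of that kind, averaged 11.88 ± 0.13 in 4T1, 7.56 ± 0.41 in 66cl4 and 11.51 ± 0.26 in 67NR (SD, n = 3 each). Of 12 measured genes of MHC class I presentation, which shows peptides to T cells, 11 were higher in 4T1 than in 67NR (median 0.90), 9 were lower in 66cl4 than in 67NR (median -0.90) and 12 were higher in 4T1 than in 66cl4 (median 1.84). Psmb9, a subunit of the immunoproteasome, averaged 11.44 ± 0.08 in 4T1, 8.01 ± 0.07 in 66cl4 and 9.86 ± 0.21 in 67NR. Beside these, the antiviral members had medians of 0.46, -0.50 and 1.17 in the 3 comparisons, and the difference between the lists was not tested.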
